A study of Saccharomyces cerevisiae with 18 samples.

Results

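The 9 genes described here, FRE1 to FRE6, FET3, FTR1 and CCC2, are grouped as the reductive route of iron uptake in Saccharomyces cerevisiae. Among them FRE6 encodes a reductase of the vacuolar membrane, and the role of FRE5 is not settled. All 9 were taken by gene symbol from the annotation of the arrays, and each had 1 probe set. They are thus 9 of the 5449 S. cerevisiae genes read by 5498 probe sets. Transcripts were measured on 18 Affymetrix arrays of BY4742, an alpha-mating haploid strain of the laboratory. It was grown in YPD, the usual rich medium, and in mid-exponential growth was given nonylphenol in ethanol. Nonylphenol is an alkylphenol left when some industrial surfactants break down. The 6 groups of 3 arrays were controls given the same volume of ethanol, 1 mg/L nonylphenol and 5 mg/L nonylphenol, each collected after 120 or 180 min. The labels call the 3 arrays of a group biological replicates and do not say whether these were separate cultures, so each p-value reflects only how these arrays spread. All groups share the strain and the medium, and controls carry the ethanol too. The comparisons ask how transcript levels differ with the dose and the time.

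Yeast can take up iron through a reductive system at the cell surface. Membrane reductases of the FRE family turn ferric into ferrous iron, Fet3, a multicopper oxidase, oxidises it again, and the permease Ftr1 passes it into the cell in a complex with Fet3. Fet3 works only after copper has been loaded into it in the secretory pathway, where the copper pump Ccc2 supplies the metal. The transcription factors Aft1 and Aft2 turn these genes on when iron is short, and the copper sensor Mac1 controls FRE1, FRE7 and the copper transporter CTR1.

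Values are RMA signals on a log2 scale, and the background level, set by the probe sets of another yeast species on the same array, was 1.86. All 9 genes lay above it in all 6 groups. Replicate arrays correlated at r = 0.994 to 0.999 over the S. cerevisiae probe sets. Of the genes deleted in this strain's usual genotype, URA3 and LYS2 had group means of 0.95 to 1.24 and 1.38 to 1.57, under the background, LEU2 read 2.89 to 3.24, above it, and the alpha-cell genes SAG1 and STE3 were high, at 11.42 or more and 9.48 or more. Bacterial poly-A control transcripts differed between 5 mg/L and control by log2 0.78 at 120 min and 0.24 at 180 min, with an SE of 0.25 each. Scaling the arrays on these transcripts lowers every gene by the same amounts. Directions below are therefore those of the deposited scaling unless poly-A scaling is named. The poly-A transcripts were themselves dim, averaging 4.19 in controls and 4.97 at 5 mg/L after 120 min, and 4.32 and 4.56 after 180 min. Yeast genes about as dim in controls had median differences of 0.15 and 0.14 at these times, with 42.5% and 42.3% called higher. The part of this in the poly-A differences was not tested. Fewer cells with a transcript and less of it per cell cannot be told apart in RNA from whole cultures.

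FET3 and FTR1, the oxidase and its permease, rose together at 5 mg/L at both times on the deposited scaling, whereas scaling on the poly-A transcripts put FET3 at -0.06 and FTR1 at 0.12 at 120 min. FET3 read 10.64, 10.65 and 10.63 on the control arrays at 120 min and 11.30, 11.41 and 11.36 on the 5 mg/L arrays. At 180 min it read 10.33, 10.32 and 10.30 in controls and 11.44, 11.46 and 11.42 at 5 mg/L. All 5 mg/L arrays thus lay above all controls, with replicates close together. The rise was 1.65-fold at 120 min (log2 0.72, SE 0.05, adjusted p = 1.16e-08 in limma with 3 arrays a group). It was 2.18-fold at 180 min (log2 1.12, SE 0.05, adjusted p = 5.47e-11).

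FTR1 moved with FET3. It read 9.65, 9.69 and 9.70 in controls at 120 min and 10.55, 10.67 and 10.51 at 5 mg/L. Controls at 180 min read 9.40, 9.34 and 9.27, and the 5 mg/L arrays 10.53, 10.70 and 10.62. The groups did not overlap at either time; the gap at 180 min was the wider one, and the controls of that time were the lower ones. FTR1 was 1.87-fold higher at 120 min (log2 0.90, SE 0.09, adjusted p = 1.86e-07) and 2.43-fold higher at 180 min (log2 1.28, SE 0.09, adjusted p = 3.08e-09).

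CCC2, the pump that brings copper to Fet3, rose by a similar amount at both times. Its control arrays read 8.03, 8.02 and 8.06 at 120 min and 7.85, 7.96 and 8.04 at 180 min. The 5 mg/L arrays read 9.01, 9.10 and 8.99, then 9.11, 9.19 and 9.13. All 6 treated values were therefore close to each other and far above the controls. The difference was 2.0-fold at 120 min (log2 1.00, SE 0.06, adjusted p = 7.69e-10) and 2.29-fold at 180 min (log2 1.19, SE 0.06, adjusted p = 9.03e-11). Poly-A scaling left 0.22 for CCC2 at 120 min, no longer called, and 0.96 at 180 min (adjusted p = 0.00884).

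**Figure D1:**
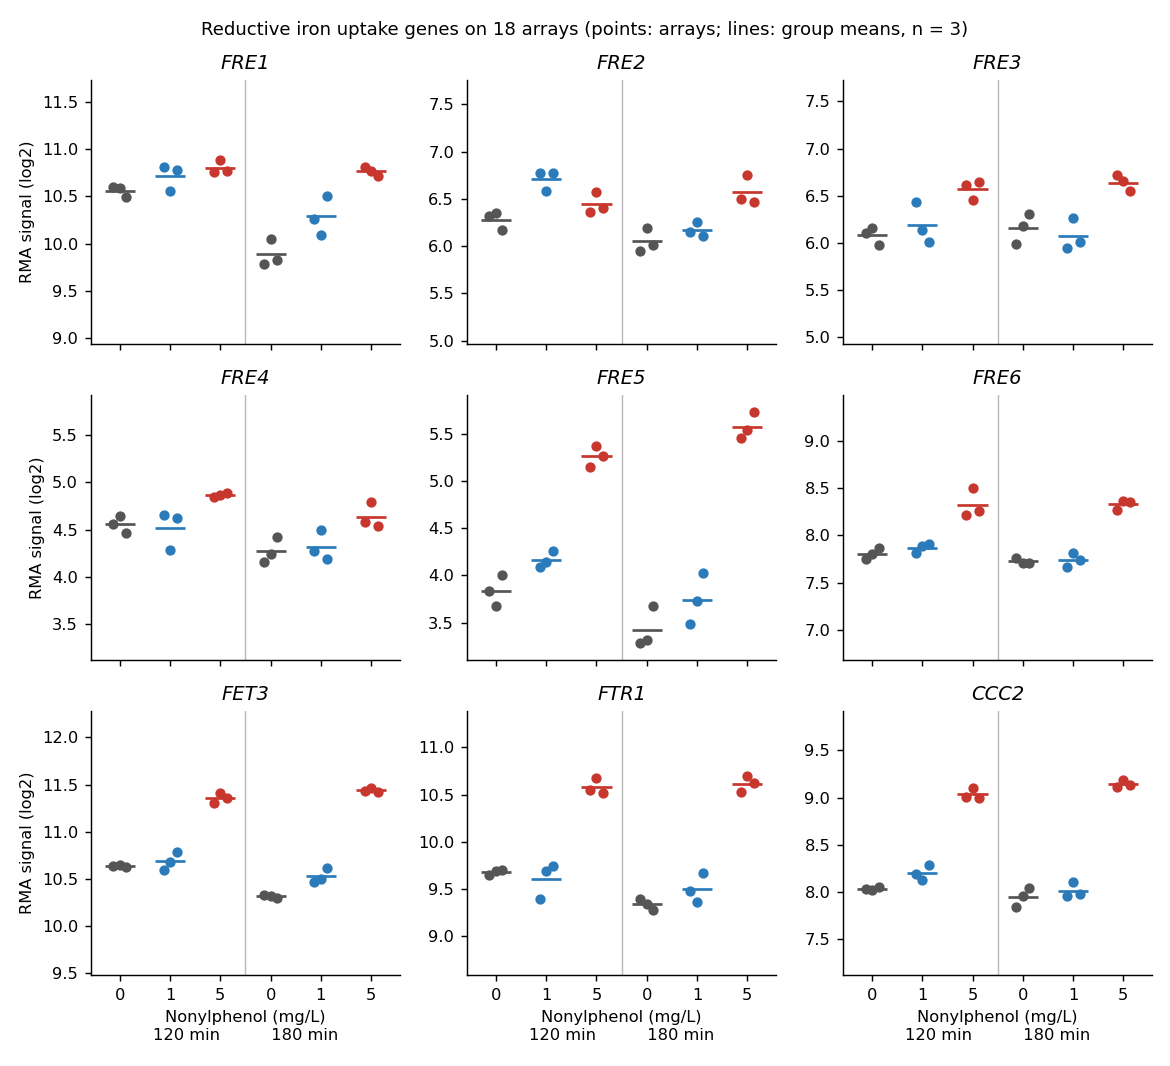
RMA signal (log2) of each gene on every array, by nonylphenol dose (mg/L) and time of collection. Points are arrays and lines are group means (n = 3), and every panel spans the same number of log2 units. FET3, FTR1, CCC2, FRE5 and FRE6 have their 5 mg/L arrays above all others, FRE1 has its lowest arrays among the 180 min controls, and FRE2 is highest at 1 mg/L and 120 min.

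FRE1 and FRE2 encode the main ferric reductases of the cell surface, which also reduce copper. FRE1 was lower in the later controls than in the earlier ones, while its 5 mg/L arrays read alike. It read 10.60, 10.59 and 10.49 in controls at 120 min against 9.79, 10.05 and 9.82 in controls at 180 min. At 5 mg/L it read 10.76, 10.88 and 10.77, then 10.81, 10.77 and 10.72. The 5 mg/L arrays were above the controls at both times, narrowly at 120 min and widely at 180 min. The rise was 1.18-fold at 120 min (log2 0.24, SE 0.09, adjusted p = 0.0326), a call lost without control replicate 1, 2 or 3 or 5 mg/L replicate 2, with adjusted p up to 0.109. At 180 min it was 1.84-fold (log2 0.88, SE 0.09, adjusted p = 5.72e-07). With poly-A scaling the FRE1 difference was -0.54 at 120 min and 0.64 at 180 min, neither called.

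FRE2 was the one gene of the 9 with its highest mean at the lower dose. At 120 min it read 6.32, 6.35 and 6.17 in controls, 6.77, 6.58 and 6.77 at 1 mg/L, and 6.36, 6.57 and 6.41 at 5 mg/L. No 1 mg/L array overlapped with either other group, and the 5 mg/L arrays lay just above the controls. At 180 min the order was that of the doses, with means of 6.05 ± 0.12, 6.17 ± 0.08 and 6.57 ± 0.16 (SD, n = 3) at 0, 1 and 5 mg/L. At 5 mg/L the difference from control was log2 0.17 at 120 min (SE 0.09, 95% interval -0.02 to 0.35, adjusted p = 0.117), not called. It was 1.44-fold at 180 min (log2 0.52, SE 0.09, adjusted p = 7.95e-05). The poly-A scaling turned the 120 min difference to -0.62 (adjusted p = 0.0269) and left 0.28 at 180 min, not called.

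FRE3 and FRE4 encode reductases that act on iron bound to siderophores, the iron chelators of microbes. FRE3 had means of 6.08 ± 0.09, 6.19 ± 0.22 and 6.58 ± 0.10 (SD, n = 3) at 0, 1 and 5 mg/L after 120 min. After 180 min the means were 6.16 ± 0.16, 6.07 ± 0.17 and 6.64 ± 0.09. The 5 mg/L arrays stood apart from all others, while the other 4 groups overlapped. The rise was 1.41-fold at 120 min (log2 0.50, SE 0.11, adjusted p = 0.000815) and 1.40-fold at 180 min (log2 0.48, SE 0.11, adjusted p = 0.000982). Poly-A scaling put FRE3 at -0.29 and 0.24, neither called.

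FRE4 showed the smallest rise at 180 min among the 9 genes. Its means at 0, 1 and 5 mg/L were 4.56 ± 0.09, 4.52 ± 0.21 and 4.87 ± 0.02 at 120 min, and 4.27 ± 0.14, 4.32 ± 0.16 and 4.64 ± 0.13 at 180 min (SD, n = 3). It was called higher at 120 min (log2 0.31, SE 0.10, adjusted p = 0.0149) and at 180 min (log2 0.36, SE 0.10, adjusted p = 0.00572), and the earlier call was lost without control replicate 3 (adjusted p = 0.0629). Quantile normalization of the S. cerevisiae probe sets put FRE4 at -0.07 at 120 min and 0.03 at 180 min, and the poly-A scaling put it at -0.47 and 0.12, none of them called. Dim probe sets rose in general: the 435 with control levels of 4 to 6, like FRE4, had a median difference of 0.15 at 120 min, and 42.5% of them were called higher. The part of this in the FRE4 values was not tested.

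FRE5 encodes a predicted reductase with no settled role, and it had the largest rise of the 9 genes. Control arrays read 3.83, 3.67 and 4.01 at 120 min and 3.28, 3.32 and 3.67 at 180 min. At 5 mg/L they read 5.15, 5.37 and 5.26, then 5.45, 5.54 and 5.73. The lowest treated array was thus more than 1 log2 unit above the highest control. FRE5 was 2.68-fold higher at 120 min (log2 1.42, SE 0.13, adjusted p = 9.15e-08) and 4.44-fold higher at 180 min (log2 2.15, SE 0.13, adjusted p = 5.96e-10). It also kept its call on the poly-A scaling, at 0.64 (adjusted p = 0.0219) and 1.91. Probe sets with control levels of 2 to 4, like FRE5, had median differences of 0.45 and 0.31 at the earlier and later time.

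FRE6 encodes a reductase of the vacuolar membrane, which serves the release of stored metal rather than uptake at the surface. Its means at 0, 1 and 5 mg/L were 7.80 ± 0.06, 7.87 ± 0.05 and 8.32 ± 0.15 at 120 min, and 7.72 ± 0.04, 7.74 ± 0.07 and 8.33 ± 0.05 at 180 min (SD, n = 3). The 4 groups at 0 and 1 mg/L overlapped in a chain, and both 5 mg/L groups lay apart from them. The rise was 1.43-fold at 120 min (log2 0.52, SE 0.07, adjusted p = 5.02e-06) and 1.52-fold at 180 min (log2 0.61, SE 0.07, adjusted p = 8.92e-07). Scaling on poly-A put FRE6 at -0.26 and 0.37, neither called.

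**Figure D2:**
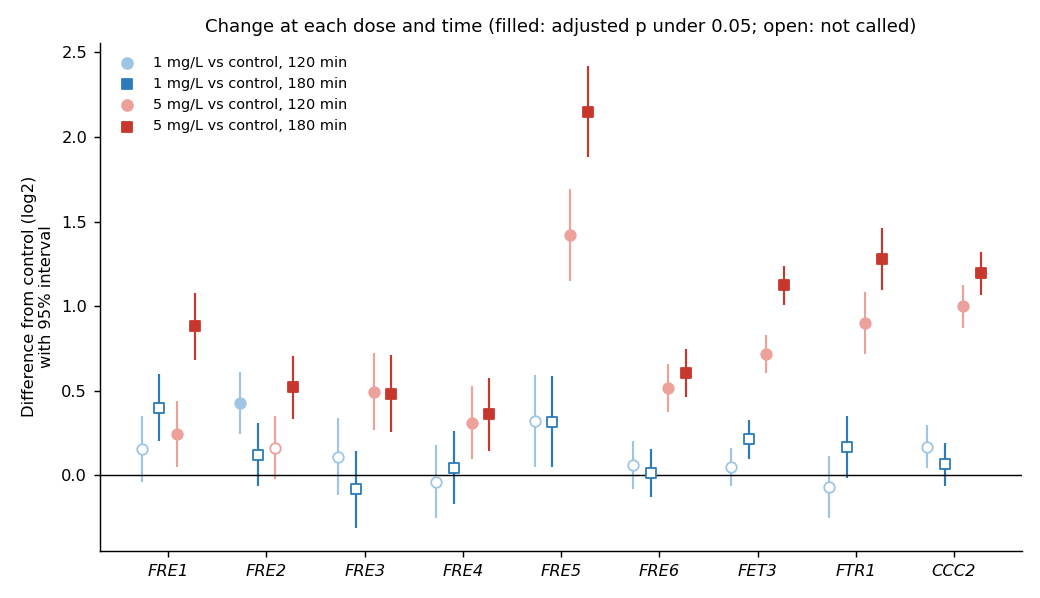
Difference from the control of the same time (log2, limma) for each gene, dose and time, with 95% intervals, on the deposited scaling. Filled symbols passed an adjusted p of 0.05. Every gene is called at 5 mg/L and 180 min, FRE2 alone is not called at 5 mg/L and 120 min and alone is called at 1 mg/L, and poly-A scaling puts FRE1, FRE2, FRE3, FRE4, FRE6 and FET3 below 0 at 5 mg/L and 120 min, as quantile normalization does for FRE4.

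In total 8 of the 9 genes were called higher and 0 lower at 5 mg/L and 120 min, where 25.4% of all probe sets were called higher and 32.7% lower. At 180 min all 9 were called higher, against 27.1% of all probe sets higher and 34.3% lower. The 5 mg/L arrays of all 9 genes lay above the controls without overlap at both times, an order seen for 28.7% of all probe sets at 120 min and 30.4% at 180 min. The median difference of the 9 genes was 0.52 at 120 min and 0.88 at 180 min, and that of all probe sets was -0.04 at each time. At 120 min the rise of FRE5 lay above those of 98.6% of probe sets, CCC2 above 96.5%, FTR1 above 95.7% and FET3 above 93.5%, whereas FRE1 and FRE2 lay above 78.3% and 72.8%. At 180 min FRE5 stood above 99.6%, FTR1 above 98.3%, CCC2 above 97.9%, FET3 above 97.6% and FRE1 above 96.0%. A shift of all genes by the same amount leaves these shares as they are. Under poly-A scaling 95 probe sets were called higher and 4278 lower at 120 min, in place of 1398 and 1796, and 175 and 375 at 180 min, in place of 1489 and 1885. Of the 9 genes, 2 were called at 120 min on that scaling, FRE5 higher and FRE2 lower, and 4 at 180 min, FRE5, FET3, FTR1 and CCC2, all higher. The comparisons at 120 and 180 min share no controls, whereas those of 1 and 5 mg/L at 1 time share theirs.

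**Figure D3:**
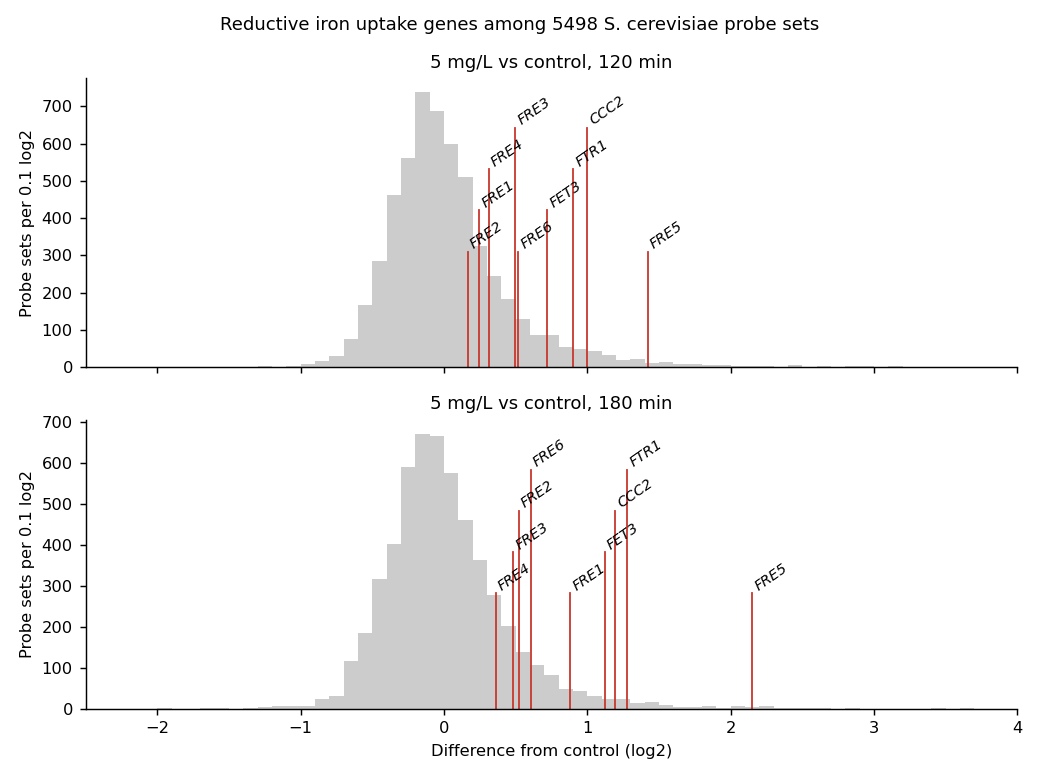
Differences between 5 mg/L and control (log2, deposited scaling) for the 5498 S. cerevisiae probe sets as grey bars, with red lines at the 9 genes, whose height has no meaning. A few probe sets lie beyond the plotted range. All 9 genes stand right of the middle of the distribution, and FRE1 and FRE2 move farther from it at 180 min, while poly-A scaling moves all values down by 0.78 and 0.24, which puts below 0 FRE1, FRE2, FRE3, FRE4, FRE6 and FET3 at 120 min.

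At 1 mg/L the responses were small, and 1 call was made. FRE2 was 1.35-fold higher at 120 min (log2 0.43, SE 0.09, limma adjusted p = 0.0342), where 0.218% of all probe sets were called higher. That call was lost without control replicate 1, 2 or 3 or 1 mg/L replicate 1 or 3, with adjusted p from 0.0721 to 0.222. It was also lost with the compared arrays alone (adjusted p = 0.0756), after quantile normalization (0.39, adjusted p = 0.0644) and with poly-A scaling (0.48, not called). The other estimates at 120 min ran from -0.07 for FTR1 to 0.32 for FRE5. All 3 arrays at 1 mg/L lay above all controls for FRE2, FRE5 and CCC2, an order seen for 5.2% of all probe sets.

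At 1 mg/L and 180 min none of the 9 genes was called by limma, with 0.0546% of all probe sets called higher. An unadjusted p under 0.05 was found for 3 of the 9 and for 3.6% of all probe sets. FRE1 had the largest estimate, 1.32-fold (log2 0.40, SE 0.09, 95% interval 0.20 to 0.60, adjusted p = 0.156), and it was called without 1 mg/L replicate 2 (adjusted p = 0.0398). FET3 read 10.47, 10.50 and 10.62 against controls of at most 10.33 (log2 0.21, SE 0.05, interval 0.10 to 0.33, adjusted p = 0.280). FRE1 and FET3 were the 2 genes whose arrays did not overlap with the controls, an order seen upward for 3.22% of all probe sets. With weights for each array 4 genes were called at this dose and time, FRE1, FET3, FRE5 and FTR1, all higher. The share of all probe sets called with these weights is not given here, so this count has no background beside it. Upper interval bounds of 0.33 for FET3, 0.35 for FTR1 and 0.19 for CCC2 lay below their estimates at 5 mg/L.

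The doses were also compared with each other. At 120 min 7 of the 9 genes were higher at 5 than at 1 mg/L and 1 was lower, where 24.3% of all probe sets were called higher and 33.1% lower. The gene that was lower was FRE2 (log2 -0.26, SE 0.09, adjusted p = 0.0169), and all 3 of its arrays at 5 mg/L lay below all 3 at 1 mg/L, an order seen for 32.5% of all probe sets. That call was lost without 1 mg/L replicate 1 or 3 or 5 mg/L replicate 1 or 3 (adjusted p from 0.0535 to 0.0681). FRE1 had a difference of 0.09 (95% interval -0.11 to 0.28, adjusted p = 0.447), which was not called, although array weights called it (adjusted p = 0.0271). The FRE4 rise of 0.35 lost its call without 1 mg/L replicate 2 (0.23, adjusted p = 0.0573), and quantile normalization put it at -0.0036. FRE5 led the rises with 1.10 (SE 0.13), followed by FTR1 at 0.97, CCC2 at 0.83 and FET3 at 0.67. Poly-A scaling left FRE5 at 0.26 (adjusted p = 0.340) and FTR1 at 0.14 (adjusted p = 0.630), neither called. It put CCC2 at -0.0069, FET3 at -0.17, FRE6 at -0.38, FRE3 at -0.45 and FRE4 at -0.49 in this comparison. FRE1 was then lower at -0.75 (adjusted p = 0.00694) and FRE2 at -1.10 (adjusted p = 0.000149). On that scaling 69 of the 5498 probe sets were called higher and 4512 lower.

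At 180 min all 9 genes were higher at 5 than at 1 mg/L, against 26.7% of all probe sets. The differences ran from 0.32 for FRE4 to 1.83 for FRE5, with FRE1 at 0.48 and FRE2 at 0.40. The FRE4 call was lost without 1 mg/L replicate 3 or 5 mg/L replicate 2 (adjusted p = 0.0700 and 0.0785), and after quantile normalization FRE4 was at -0.03. With poly-A scaling 3 of the 9 were called, FRE5, FTR1 and CCC2, all higher. On that scaling 173 of the 5498 probe sets were called higher and 165 lower.

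The times of collection were compared within each dose. In controls 4 of the 9 genes were lower at 180 than at 120 min and 0 were higher, where 12.1% of all probe sets were called lower. FRE1 fell by 0.67 on the log2 scale (SE 0.09, adjusted p = 0.000110), and 10 of the 5498 probe sets had a lower estimate. FET3 fell by 0.32 (SE 0.05, adjusted p = 0.000578) and FTR1 fell by 0.34 (SE 0.09, adjusted p = 0.0107). FRE5 fell by 0.41 (SE 0.13, adjusted p = 0.0290), a call lost without control replicate 1 or 3 at 120 min or control replicate 1 or 2 at 180 min (adjusted p from 0.0751 to 0.142). FRE4 at -0.28 (adjusted p = 0.0541) and FRE2 at -0.23 (adjusted p = 0.0686) were not called. Both were called lower with the compared arrays alone (adjusted p = 0.0153 and 0.0308) and with array weights (0.0164 and 0.0276), FRE4 also after quantile normalization (0.0156) and FRE2 with the replicate number as a block (0.0481). FRE3, FRE6 and CCC2 had estimates of 0.08, -0.08 and -0.08, not called. With poly-A scaling 1 probe set of all was called in this comparison and none of the 9. The falls were then larger, at -0.81 for FRE1, -0.45 for FET3, -0.47 for FTR1 and -0.55 for FRE5, and the SE was 0.27 for each.

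At 1 mg/L 3 of the 9 genes were lower at 180 than at 120 min, against 6.75% of all probe sets. FRE2 fell by 0.53 on the log2 scale (SE 0.09, adjusted p = 0.00143) and FRE1 fell by 0.43 (SE 0.09, adjusted p = 0.00830), a call lost with the compared arrays alone (adjusted p = 0.123) and with array weights (adjusted p = 0.126). FRE5 fell by 0.42 (SE 0.13, adjusted p = 0.0485), a call lost without any 1 of the compared arrays other than replicate 3 at 180 min (adjusted p from 0.0714 to 0.163). That call was also lost with trend and robust settings (adjusted p = 0.0556), median scaling (0.0628), quantile normalization (0.0511), the compared arrays alone (0.160) and array weights (-0.22, 0.145). With poly-A scaling none of the 9 genes and none of all probe sets was called in the 1 mg/L comparison. The falls were then larger, at -0.77 for FRE2, -0.67 for FRE1 and -0.65 for FRE5, and the SE was 0.27 for each. At 5 mg/L none of the 9 genes was called by limma between the times, and 0.891% of all probe sets were called in either direction. An unadjusted p under 0.05 was found for FRE4 and FRE5, 2 of the 9, and for 17% of all probe sets. The estimates ran from -0.23 for FRE4 to 0.31 for FRE5, with FRE1 at -0.04, FET3 at 0.08 and FTR1 at 0.04. Poly-A scaling adds 0.41 to each, which puts all 9 above 0, FRE4 at 0.18, and none was called.

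**Figure D4:**
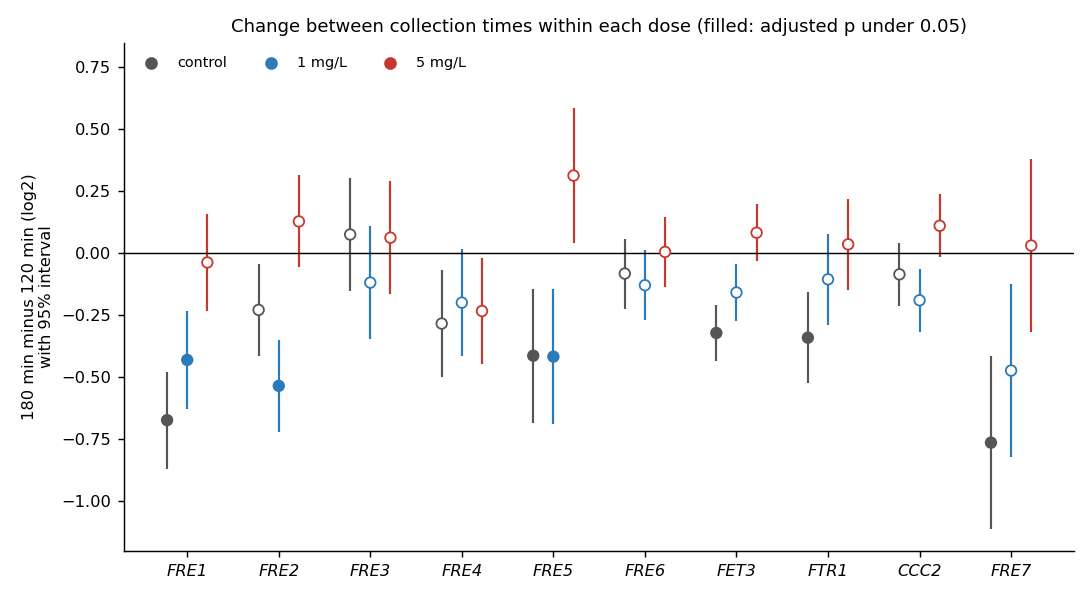
Difference between 180 and 120 min (log2, limma, deposited scaling) within each dose, with 95% intervals, for the 9 genes and FRE7. Filled symbols passed an adjusted p of 0.05. FRE1, FRE5, FET3, FTR1 and FRE7 are called lower in controls, FRE1, FRE2 and FRE5 at 1 mg/L, and none at 5 mg/L, where poly-A scaling turns FRE4 to 0.18 and puts all 9 genes above 0.

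The effect of 5 mg/L was tested for a difference between the times. It was larger at 180 min for 4 of the 9 genes and smaller for 0, where 8.53% of all probe sets were called larger. FRE5 had a difference of effects of 0.73 (log2, SE 0.18, adjusted p = 0.0155), FRE1 of 0.64 (SE 0.13, adjusted p = 0.00545) and FET3 of 0.40 (SE 0.08, adjusted p = 0.00347). FTR1 had 0.38 (SE 0.12, adjusted p = 0.0490), a call lost without any 1 of the compared arrays other than 5 mg/L replicate 2 at 120 min and replicate 1 at 180 min (adjusted p up to 0.112). The FTR1 call was also lost with median scaling (0.37, adjusted p = 0.0635) and quantile normalization (0.34, adjusted p = 0.0656). FRE2 had 0.36 (SE 0.12, adjusted p = 0.0614) and CCC2 0.20 (SE 0.09, adjusted p = 0.123), neither called, and FRE2 was called with the replicate number as a block (adjusted p = 0.0424). Array weights called both, FRE2 at 0.38 (adjusted p = 0.0108) and CCC2 at 0.21 (adjusted p = 0.0188). For 1 mg/L none of the 9 genes and none of all probe sets was called by limma. An unadjusted p under 0.05 was found for 2 of the 9 (FRE2 and FET3) and 2.53% of all probe sets. Array weights called 2 of the 9, FET3 among them, and the share of all probe sets for that setting is not given here. Poly-A scaling called none of the 9 for either dose, and with it the 5 mg/L values were larger and their SE rose to 0.37: FRE5 was at 1.27, FRE1 at 1.18, FET3 at 0.95 and FTR1 at 0.92.

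The 9 genes were compared with each other over the 18 arrays. Pearson's r between pairs ran from 0.47 to 0.99 with a median of 0.75 over 36 pairs, as a description, since all pairs share the arrays, their scaling and the group differences. FET3 and FTR1 were the closest pair (r = 0.99), and both were close to FRE5 (0.98 and 0.96), FRE6 (0.96 and 0.97) and CCC2 (0.98 and 0.96). FRE2 was the farthest from the others, with r of 0.47 with FRE3 and 0.49 with FTR1, and its highest value was with FRE1 (0.80). After the group means were taken off, r ran from -0.79 to 0.83 with a median of 0.23 over the 36 pairs. The highest value was that of FET3 with FTR1, and the lowest that of FRE3 with FTR1.

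For each gene the 3 most similar of 5421 other probe sets were found by Pearson's r over the 18 arrays. FET3 was nearest to SIT1, a siderophore transporter (r = 0.995), to TIS11, whose product promotes decay of mRNAs for iron-using proteins (0.99), and to REF2 (0.99). CCC2 and FRE5 shared ENB1, another siderophore transporter (0.99 each), and VMR1 (0.99 and 0.98). FTR1 was nearest to MIG2, CYS3 and ERG25 (0.99 each), and FRE6 to PIR3, a cell wall protein (0.99), YAT1 and HPF1 (0.98 each). FRE1 was nearest to FRE7 (0.94), CRR1 (0.91) and NOG1 (0.91), and FRE2 to MSH6 (0.84), FRE7 (0.83) and CCZ1 (0.80). FRE3 was nearest to YOR019W (0.96), PET18 and YNL277W-A (0.95 each), and FRE4 to EFM3 (0.92), ATR1 (0.89) and YRB30 (0.88).

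The remaining reductase genes on the list, FRE7 and FRE8, were called higher at 5 mg/L at 180 min. FRE7 had means of 7.59 ± 0.11, 7.84 ± 0.27 and 7.79 ± 0.30 at 0, 1 and 5 mg/L after 120 min, and 6.82 ± 0.14, 7.36 ± 0.27 and 7.82 ± 0.24 after 180 min (SD, n = 3). As for FRE1, the controls fell over time by 0.76 on the log2 scale (SE 0.17, adjusted p = 0.00381). The 5 mg/L effect on FRE7 was 0.21 at 120 min, not called, and 1.00 at 180 min (SE 0.17, adjusted p = 6.60e-05), and these differed by 0.79 (SE 0.23, adjusted p = 0.0322). FRE8 was at -0.04 at 120 min, not called, and rose by 0.28 at 180 min (SE 0.07, adjusted p = 0.00352). With poly-A scaling FRE7 was lower at 120 min at -0.58 (adjusted p = 0.0388) and higher at 180 min at 0.76 (adjusted p = 0.0439), and FRE8 was lower at 120 min at -0.83 (adjusted p = 0.00362) and at 0.04 at 180 min, not called. On that scaling 95 of the 5498 probe sets were called higher and 4278 lower at 120 min, and 175 and 375 at 180 min.

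Genes that supply copper were called in both directions at 5 mg/L. Of 6, 4 rose and 1 fell at 120 min, against 25.4% higher and 32.7% lower over all probe sets, and 3 rose and 1 fell at 180 min, against 27.1% and 34.3%. The list's medians were 0.32 and 0.13. CTR1, the high-affinity copper transporter, rose by 0.70 and 1.23 (SE 0.08 each), and CTR3, a second such transporter, by 1.33 and 1.44 (SE 0.07 each). CTR2, the copper transporter of the vacuole, rose by 0.37 and 0.24, and MAC1 itself had differences of -0.18 and -0.23, both called. As for FRE1 and FRE7, the controls fell with time, for CTR1 by 0.56 on the log2 scale (SE 0.08, adjusted p = 0.000229), and the 5 mg/L effect was larger at 180 min by 0.52 (SE 0.12, adjusted p = 0.00913). Poly-A scaling puts all of these 120 min differences except that of CTR3 below 0.

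Other genes of iron handling were counted at 5 mg/L from lists chosen with earlier results of these data known. All 7 siderophore uptake genes rose at both times, where 25.4% and 27.1% of all probe sets did, with median differences of 1.35 and 2.21, and ARN2 and SIT1 rose by 2.27 and 2.20 at 180 min. Of 16 genes for mobilising and sparing iron inside the cell, 11 rose and 1 fell at 120 min, against 25.4% higher and 32.7% lower over all probe sets, and 14 rose and 1 fell at 180 min, against 27.1% and 34.3%. LSO1, which is induced in low iron, rose by 2.99 and 3.63, TIS11 by 1.79 and 2.48, the autophagy gene ATG41 (ICY2) by 1.72 and 1.94, and the haem oxygenase HMX1 by 1.67 and 1.50, while ISU2, an iron-sulphur scaffold, had -0.47 and -0.32, both called. FTH1 and FET5, the vacuolar counterparts of FTR1 and FET3, rose by 0.61 and 0.46 at 120 min and by 0.76 and 0.59 at 180 min. Poly-A scaling puts the 120 min rises of FTH1 and FET5 below 0.

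Of 7 regulators of the iron response, 3 rose and 2 fell at each time, which is near the shares of all probe sets, 25.4% and 27.1% higher and 32.7% and 34.3% lower. AFT1 rose by 0.22 at 120 min and by 0.78 at 180 min (SE 0.06 each), FRA1, a partner in iron sensing, by 0.45 and 0.31, and YAP5, the factor for high iron, by 0.24 and 0.33. GRX4, a glutaredoxin that signals iron to Aft1, had differences of -0.47 and -0.56, and GRX3 of -0.17 and -0.39, all called. AFT2 was at -0.06 and -0.01, not called. Poly-A scaling puts the AFT1, FRA1 and YAP5 rises at 120 min below 0.

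Of 4 genes for low-affinity and other metal uptake, 0 were called higher and 2 lower by limma at 120 min, with the same 2 at an unadjusted p under 0.05, and 2 higher and 2 lower at 180 min. Over all probe sets 25.4% and 27.1% were called higher and 32.7% and 34.3% lower at these times. The manganese and iron transporter SMF1 had differences of -0.60 and -0.68, and SMF2 of -0.40 and -0.33, all called. FET4 and PHO84, the other genes of this list, were not called at 120 min and were called higher at 180 min. The vacuolar iron importer CCC1 had -0.39 and -0.49 (SE 0.05 each), both called, and TYW1 had -0.36 at 120 min, called, and 0.11 at 180 min, not called. CUP1-1 was at -0.10 and 0.03, not called, and its near-identical copy CUP1-2 had no probe set of its own here.

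Of 22 genes for proteins that use iron, 10 rose and 8 fell at 120 min, against 25.4% higher and 32.7% lower over all probe sets, and 8 rose and 10 fell at 180 min, against 27.1% and 34.3%. The list's medians were 0.0039 and -0.02. Those that rose included the ribonucleotide reductase genes RNR4 (0.60 and 0.46) and RNR2 (0.68 and 0.89), the catalase genes CTA1 (1.01 and 0.96) and CTT1 (0.57 and 0.37), aconitase ACO1 (0.51 and 0.37), and ERG3 of ergosterol synthesis (0.35 and 0.86). CYC1, cytochrome c, had differences of -0.27 and -0.89, and SDH2, the iron-sulphur subunit of succinate dehydrogenase, of -0.15 and -0.60, all called. Poly-A scaling puts all of these except CTA1 below 0 at 120 min. At 1 mg/L limma called 0 genes of these lists at either time.

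The genes next to the 9 on the chromosomes, by their order in the RefSeq annotation, were read for comparison. Of 17 measured neighbours, 8 were called higher and 5 lower at 5 mg/L and 120 min, against 25.4% higher and 32.7% lower over all probe sets. At 180 min 8 were higher and 7 lower, against 27.1% and 34.3%, and the medians were 0.12 and 0.04. FIT3, a cell wall mannoprotein of siderophore uptake beside FRE5 on chromosome XV, rose by 1.10 and 1.63. The genes on either side of FRE4, MNT4 and YNR061C, had differences of -0.28 and -0.44 at 120 min and of -0.65 and -0.49 at 180 min, all called, opposite in sign to FRE4 on the deposited scaling. FRE4 itself was at -0.07 and 0.03 at these times after quantile normalization, and at -0.47 and 0.12 with poly-A scaling. Beside FET3 on chromosome XIII, AAC1 rose by 0.31 at 120 min, a value that poly-A scaling puts below 0, and was at 0.04 at 180 min, not called, and SEN15 was at -0.04 and -0.02, not called.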

How the data were processed

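The deposited values are log2 signals made by the authors with RMA; the tools RMA, affy and limma are named per the submitters' processing notes, without versions in what was used here. That the base is 2 was read from the values, which run from 0.41 to 13.74. Probe sets took their names from the platform annotation, with symbols updated through RefSeq, and 5498 S. cerevisiae probe sets were kept. As background level served percentile 95 of the mean signals of 1747 probe sets for another yeast.

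One model with 6 group means was fitted over all 18 arrays in limma 3.58.1 (R 4.3.3), and checked on simulated data. Benjamini-Hochberg adjustment ran over all 5498 probe sets within a comparison, 11 in all, and "called", "rose" and "fell" mean an adjusted p under 0.05. Standard errors pool the spread of the 6 groups, and precision is limited by the number of arrays. The 9 genes, the 8 lists of other iron and copper genes and the alternatives were chosen with earlier results of these data known. The alternatives were the replicate number as a block, the compared arrays alone, trend and robust settings, array weights, median, quantile and poly-A scaling, a filter on dim probe sets and leaving out each array. All 9 genes are named, with called genes of the lists and the 3 probe sets most like each gene; AFT2, CUP1-1, ISU2 and further list genes and neighbours were chosen after their values were seen.

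Whether replicate numbers pair arrays was examined by correlating deviations of same-numbered arrays from their group means. All 3 correlations passed 0.1 in 1 of 15 pairs of groups, controls and 1 mg/L at 120 min.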

Additional observations from a re-analysis of the deposited data

Results flagged for a closer look

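The effect of 5 mg/L nonylphenol differed between 180 and 120 min, by a test of the difference itself in limma, for 4 of the 9 genes, and these are listed for that reason. The effect at 180 minus that at 120 min was 0.64 (log2) for FRE1, 0.73 for FRE5, 0.40 for FET3 and 0.38 for FTR1. The FTR1 call was lost with median scaling, with quantile normalization and on leaving out most single arrays. For FRE1, FET3 and FTR1 the means at 5 mg/L differed between the times by -0.04, 0.08 and 0.04, and the controls were lower at 180 min by 0.67, 0.32 and 0.34. For FRE5 the controls were lower by 0.41 and the 5 mg/L arrays higher by 0.31. Poly-A control transcripts had the opposite sign in this contrast, at -0.54 (SE 0.36). Scaling on them gave 1.18 for FRE1, 1.27 for FRE5, 0.95 for FET3 and 0.92 for FTR1, with an SE of 0.37 each, and none was called.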

How the results depend on the processing

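The count of called genes among the 9 stayed within 1.5 times its value for median scaling, for trend and robust settings, without dim probe sets and with the replicate number as a block. Median scaling lost the calls of FRE5 at 1 mg/L over time and of FTR1 for the difference between times at 5 mg/L. Trend and robust settings lost the FRE5 call at 1 mg/L over time and gained that of CCC2 (adjusted p = 0.0475). The block changed 2 calls, both of FRE2: controls over time (-0.23, adjusted p = 0.0481) and the 5 mg/L effect over time (0.36), each gained. It is not known whether the numbers pair the arrays. With the compared arrays alone, the count was 0 for 1 mg/L at 120 min and 1 for 1 mg/L over time. Array weights gave 4 calls for 1 mg/L at 180 min and 2 for its difference between times, and FRE4 was at -0.0755 for 1 mg/L at 180 min. The shares of all probe sets called with array weights or with the compared arrays alone are not given here. Quantile normalization gave 0 calls for 1 mg/L at 120 min, and FRE4 was at -0.0665 for 5 mg/L against control at 120 min and at -0.0036 and -0.0276 for 5 against 1 mg/L at 120 and 180 min.

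The poly-A scaling gave 2 and 4 calls for 5 mg/L at 120 and 180 min and 0 for 1 mg/L at 120 min. It gave 2 and 3 for 5 against 1 mg/L, and 0 for controls over time, for 1 mg/L over time and for the difference between times at 5 mg/L. The 2 for 5 mg/L at 120 min were FRE5, higher, and FRE2, lower and not called on the deposited scaling. The 2 for 5 against 1 mg/L at 120 min were FRE2 and FRE1, both lower, and FRE1 was not called on the deposited scaling. Over all probe sets, 5 against 1 mg/L gave 69 calls higher and 4512 lower on that scaling at 120 min, and 173 and 165 at 180 min. The 5 mg/L values at 120 min turned to -0.54 for FRE1, -0.62 for FRE2, -0.29 for FRE3, -0.47 for FRE4, -0.26 for FRE6 and -0.0642 for FET3. Against 1 mg/L at 120 min they turned to -0.75 for FRE1, -0.45 for FRE3, -0.49 for FRE4, -0.38 for FRE6, -0.17 for FET3 and -0.0069 for CCC2. FRE4 turned to 0.18 at 5 mg/L over time, to 0.0158 at 1 mg/L and 120 min and to -0.0029 at 1 mg/L and 180 min, where FRE6 turned to -0.0336. The shift by the poly-A levels follows from that scaling's construction.

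Without each array in turn, the counts ran from 6 to 8 and 9 to 9 for 5 mg/L at 120 and 180 min, 0 to 1 for 1 mg/L at each time, 7 to 8 and 8 to 9 for 5 against 1 mg/L, 3 to 5 for controls over time, 2 to 4 for 1 mg/L over time and 3 to 5 for the difference between times at 5 mg/L. Values at 1 mg/L and 120 min that changed sign ran from -0.11 to 0.082 for FRE4, -0.0072 to 0.20 for FRE3, -0.14 to 0.0379 for FTR1 and -0.0001 to 0.10 for FET3. At 180 min they ran from -0.0409 to 0.12 for FRE4 and -0.0207 to 0.0514 for FRE6. The cause of these changes was not tested. How many of all probe sets stayed called without an array is not shown. The counts above therefore have no general call rate to be set against.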

Other observations

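CRR1, which lies next to FRE1 on chromosome XII and by its locus name is read from the opposite strand, was the second most similar of 5421 probe sets to FRE1 (r = 0.91 over 18 arrays, 0.58 after group means were taken off). It rose by 0.41 at 5 mg/L and 120 min and by 0.79 at 180 min, beside 0.24 and 0.88 for FRE1. CDC123, the neighbour on the other side of FRE1, rose by 0.28 and 0.41. On the poly-A scaling these 120 min differences would lie below 0.

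After group means were taken off, 4 genes had an r below 0 with FTR1: FRE3 at -0.79, FRE4 at -0.43, CCC2 at -0.05 and FRE2 at -0.03. At 1 mg/L and 120 min replicate 1 had the highest FRE3 of its group, 6.43, and FRE4, 4.65, and the lowest FTR1, 9.39. The most similar probe sets to FRE3, YOR019W, PET18 and YNL277W-A, followed it within groups at r = 0.90, 0.92 and 0.88.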
